A study of Mus musculus with 3 samples.

Results

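The RNAs described here are 9 of the 32285 genes in the count matrices of the mouse lacrimal gland (LG), of which 20471 had at least 1 read in the cells kept. They are 3 long noncoding RNAs that stay in the nucleus or are annotated beside ribosomal RNA sequence (*Malat1*, *Neat1* and *Gm26917*), and the mRNAs of 6 proteins, of which *Snrnp70*, *Luc7l2*, *Srsf5* and *Nktr* belong to splicing, *Tnrc6a* to RNA silencing and *Tent5a* to poly(A) addition. They were chosen by measured values, since all 9 had been seen to be high in a small class of acinar cells with high *Tfrc* in these same libraries. Their levels in acinar cells are therefore given without a test, and tests are made only among the other cells. The files count RNA per cell and not per compartment, so nuclear retention itself was not measured.

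The 3 single-cell libraries were made from C57BL/6J mice at 2 months of age, 1 from females and 2 from males, each from 6 glands of 3 pooled animals with no treatment. Tissue was dissociated with enzymes, and dead cells and red blood cells were depleted before loading. The female library was made at another core facility and on another day than both male libraries, and no test of sex was made, since facility, day and sex cannot be told apart. All p-values rest on differences between sets of cells within these 3 pools, with the library as a block. Their spread is shared over genes and, in the class tests, over the classes. It does not measure the spread between animals.

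*Malat1* lies in nuclear speckles, bodies that store splicing factors, and *Neat1* is the scaffold of paraspeckles, bodies that form beside them. Splicing starts when the U1 particle, which holds the *Snrnp70* protein and is joined by *Luc7l2*, marks the start of an intron, and SR proteins such as *Srsf5* bind exons and help U1 to stay. *Nktr* encodes a large cyclophilin with a stretch rich in arginine and serine, *Tnrc6a* encodes GW182, which links microRNA-loaded Argonaute to deadenylation, and *Tent5a* encodes a poly(A) polymerase that lengthens the tails of mRNAs of secreted proteins. In the LG, acinar cells make most of the tear proteins, and ducts, myoepithelial cells (MECs), stroma, vessels and immune cells surround them.

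In the mouse build GRCm38 (mm10, GENCODE vM21 annotation), *Malat1* lies at chr19:5795690-5802672 on the minus strand as a single exon of 6983 bases, and *Neat1* lies 22035 bases away on the same strand at chr19:5824708-5845478. The longest *Neat1* transcript is unspliced and has 20771 bases. Neither *Malat1* nor this longest *Neat1* transcript ends in a normal poly(A) tail. Both are known to end in a stretch of A that folds into a triple helix. The *Malat1* end is cut free from a small tRNA-like RNA. Shorter *Neat1* transcripts of 3004, 1030 and 711 bases are annotated too, and the counts do not tell transcripts apart. The kit primes reverse transcription with oligo-dT, which can also bind stretches of A inside an RNA, and what this does to the counts was not tested. The stretches below show these sites, 5′ to 3′ on the strand of the RNA, with runs of A in capitals. *Malat1* is shown from base 6654 to base 6705 of its transcript, *Neat1* at its annotated end, and *Gm26917* at the longest run of A that it holds, which has 4 bases.
Malat1, chr19:5795968-5796019, minus strand: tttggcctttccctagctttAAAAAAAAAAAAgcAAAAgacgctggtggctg
Neat1, chr19:5824708-5824767, minus strand: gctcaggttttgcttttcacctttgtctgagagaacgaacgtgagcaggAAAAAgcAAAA
Gm26917, chr17:39845116-39845159, plus strand: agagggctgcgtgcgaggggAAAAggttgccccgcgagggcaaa
The end of *Neat1* and the site in *Malat1* share the 11 bases AAAAAGCAAAA, which, on the strand of the RNA, occur in the longest transcript of 152 of 12011 detected genes (1.27%) and of no other member.

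*Gm26917* lies at chr17:39843013-39846341 on the plus strand, 616 bases before *Gm42418*, a row at the 45S ribosomal RNA sequence. Its GC content is 69.1%, against a median of 49.5% over the 12011 genes, and only 5 genes had a higher one. *Gm42418* and *AY036118*, which is read from the opposite strand, share 923 bases, so their counts are uncertain. Both rows and *Lars2*, a mitochondrial tRNA synthetase gene on another chromosome, make up the list called 45S rows here. The mRNAs come from chr7:45376453-45395742, minus strand (*Snrnp70*), chr6:38551334-38609470, plus strand (*Luc7l2*), chr12:80945504-80950507, plus strand (*Srsf5*), chr9:121719169-121756843, plus strand (*Nktr*), chr7:123123885-123195296, plus strand (*Tnrc6a*), and chr9:85320439-85327348, minus strand (*Tent5a*). Transcripts that keep an intron are annotated for all 5 of these genes other than *Tent5a*: 9 of 17 transcripts of *Snrnp70*, 8 of 18 of *Nktr*, 5 of 11 of *Tnrc6a*, 3 of 12 of *Srsf5* and 3 of 13 of *Luc7l2*. Of the 12011 genes, 58.9% have at least 1 such transcript and 13.2% have at least 4, as *Snrnp70*, *Nktr* and *Tnrc6a* do. A run of at least 10 A before the last 50 bases is present in the longest transcript of 5 of the 9 members, against 18.4% of all genes and 41.2% of the 1785 genes with over 6000 bases.

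After filtering, 18344 cells remained (7652 female, 5295 and 5397 male), with median counts of 3252, 1884 and 1788 unique molecules (UMIs) per cell, and 18101 cells fell into 11 named classes. Of these, 4886 were acinar-like (4097 acinar-like proper, 505 *Tfrc*-high-like and 284 *Car6*-high-like) and 13215 belonged to 8 other classes. Between 8 and 13 barcodes were shared by any 2 libraries. RNA of tear products reached every class: it made up 90.3 ± 0.446% of the UMIs of acinar-like cells (SD, n = 3 libraries) and still 45.2% in fibroblast-like and 47.9% in duct-like cells. Free RNA, measured in uncalled barcodes of 10 to 100 UMIs, held 80.2 to 85.0% tear RNA. Levels are therefore given as CPM outside tear genes, in which the UMIs outside 122 tear-product genes make up the total.

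All 9 RNAs had their highest mean in the *Tfrc*-high-like class, which is how they were chosen. In the 3 libraries (female, male 1 and male 2, in this order throughout), *Malat1* stood there at 129512, 67861 and 68402 CPM outside tear genes, against 16515, 13000 and 8478 in acinar-like cells. The ratio of *Tfrc*-high-like to acinar-like cells was 5.22 to 8.07 for *Malat1* within a library, 3.94 to 8.68 for *Neat1*, 3.07 to 9.68 for *Gm26917* and 2.02 to 2.92 for *Tent5a*, the lowest of the 9. The 5 other members ranged from 3.75 to 7.65. These cells also had a median of 1682 UMIs, 7.47% of UMIs outside tear genes from ribosomal protein genes against 21.0% in acinar-like cells, 17.3% against 12.8% from mitochondrial genes, and 1.82% against 0.604% from 20 genes induced by dissociation. The part of these shares in the levels was not tested.

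**Figure D1:**
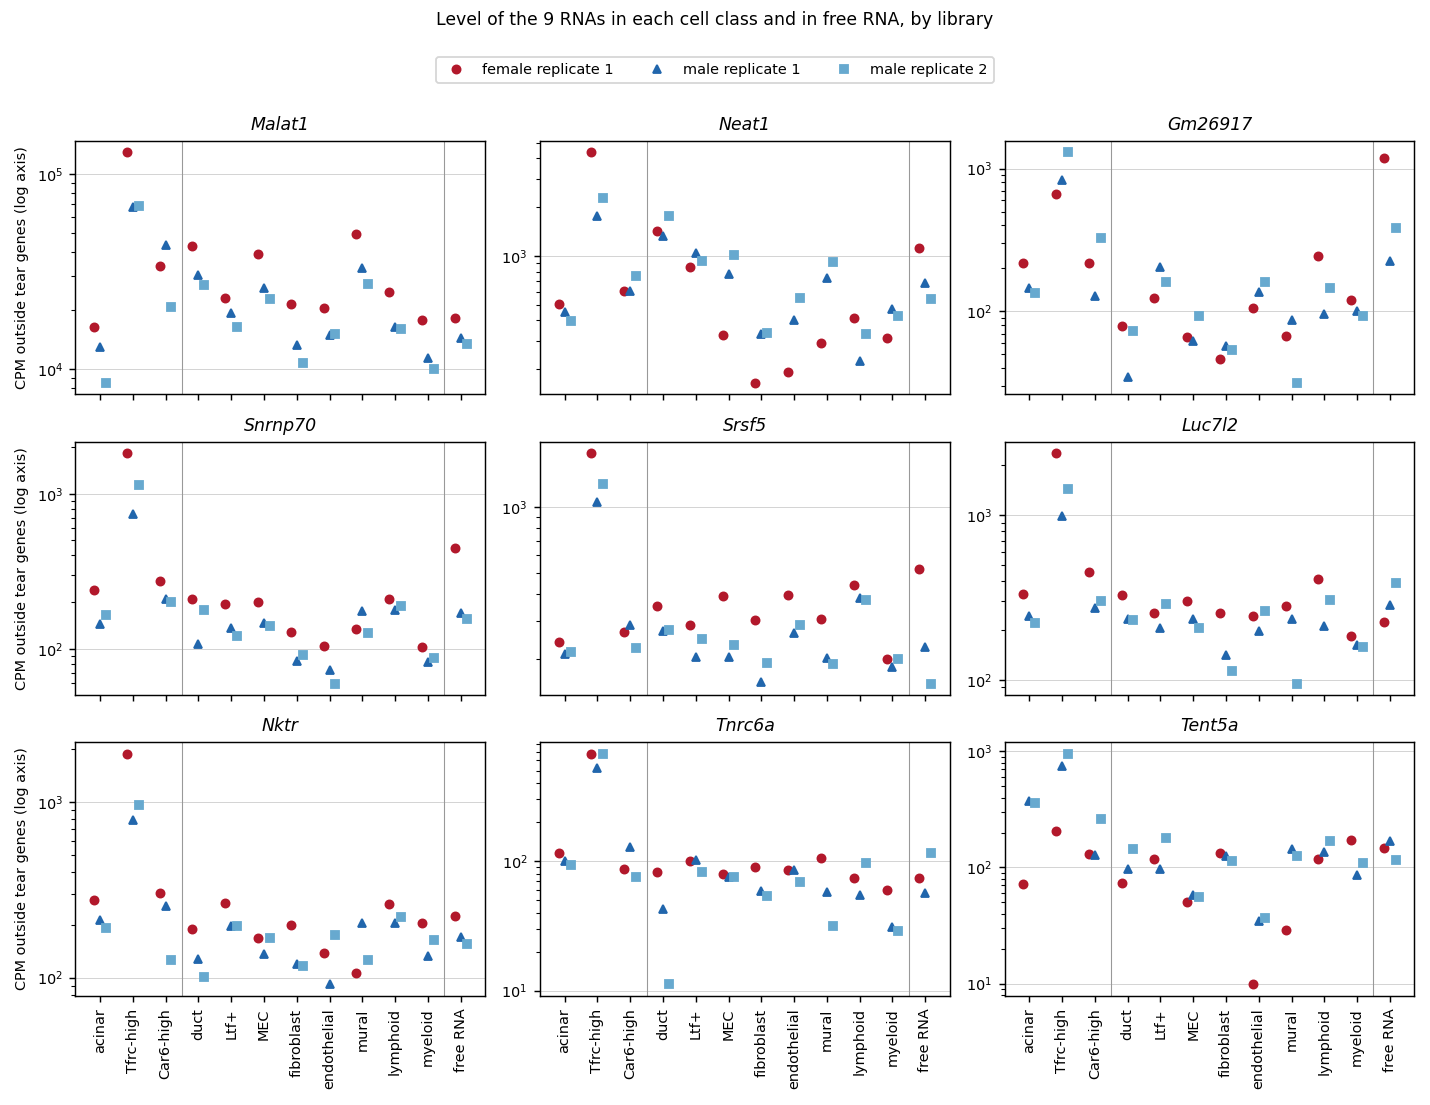
Level of each RNA in 11 cell classes and in free RNA, in CPM outside tear genes on a log axis, with 1 point per library (circle, female; triangle, male 1; square, male 2). For all 9 RNAs the *Tfrc*-high-like class has the highest mean, and among the other classes the order differs from RNA to RNA.

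Outside acinar cells, *Malat1* ranged over a few-fold. Its highest mean there, in mural-like cells (49600, 32826 and 27310 CPM outside tear genes), was 2.79 times its lowest, in myeloid-like cells (17885, 11368 and 10043). The female library was the highest of the 3 in 10 of 11 classes. Duct-like cells followed closely on mural-like cells, with 42822, 30464 and 26854 CPM outside tear genes. From class to class in this order, values of neighbours overlapped throughout, other than for *Tfrc*-high-like cells, whose lowest library was above the highest of mural-like cells.

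*Neat1* varied most, 5.44 times between its highest and lowest non-acinar means. Duct-like cells held 1420.0, 1325 and 1760 CPM outside tear genes, above every library of the next class, *Ltf*+-like cells (859, 1035 and 931). Fibroblast-like cells held the least, with 164, 331 and 332 CPM outside tear genes. Unlike *Malat1*, *Neat1* was lowest in the female library in 6 of 11 classes and highest in 3. *Gm26917* ranged 3.10 times, from 46.4, 56.9 and 53.9 CPM outside tear genes in fibroblast-like cells to 124, 204 and 160 in *Ltf*+-like cells. In lymphoid-like cells it stood at 245, 95.5 and 146, with the female library well above both male ones. Free RNA held more *Gm26917* than any non-acinar class did in each library, with 1189, 227 and 387 CPM outside tear genes, resting on 34 UMIs in all.

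Outside acinar cells, all 4 splicing mRNAs had their highest mean in lymphoid-like cells. *Snrnp70* stood there at 209, 177 and 189 CPM outside tear genes, 2.43 times the mean of endothelial-like cells, which were lowest (104, 72.6 and 59.5). *Srsf5* reached 437, 382 and 373 CPM outside tear genes in lymphoid-like cells against 201, 184 and 201 in myeloid-like cells, the lowest class. *Luc7l2* gave 408, 212 and 303 against 186, 163 and 157 in the same pair of classes. The range over non-acinar means was 2.03 times for *Srsf5*, 1.82 times for *Luc7l2* and 1.70 times for *Nktr*, the lowest range of the 9. The female library was the highest of the 3 in 10 of 11 classes for *Snrnp70*, in 9 for *Srsf5* and *Luc7l2*, and in 8 for *Nktr*.

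*Tnrc6a* was low throughout, with a highest non-acinar level of 99.9, 103 and 81.8 CPM outside tear genes in *Ltf*+-like cells and a lowest of 59.8, 30.9 and 29.0 in myeloid-like cells. In duct-like cells its 3 values, 83.0, 42.4 and 11.2, rest on 244, 11 and 2 UMIs. *Tent5a* ranged 5.19 times over non-acinar means. Lymphoid-like cells held 118, 136 and 168 CPM outside tear genes, and endothelial-like cells held 9.86, 34.7 and 36.6, resting on 17, 11 and 8 UMIs and below every library of the next class, MEC-like cells (54.8 ± 4.26, SD, n = 3). In acinar-like cells *Tent5a* was 71.4 in the female library and 372 and 357 in the male ones. The 2 male libraries thus lay together and apart from the female one, and sex, facility and day cannot be told apart here. For 7 of the 9 RNAs, the *Tfrc*-high-like class against the next was the only neighbouring pair of 10 in which the libraries did not overlap. *Neat1* had 2 such pairs, and for *Tent5a* the pair was MEC-like over endothelial-like cells.

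Which of the 5 largest non-acinar classes held more of each RNA was tested with edgeR's quasi-likelihood test, each class against the mean of the other 7 non-acinar classes, with the library as a block and Benjamini-Hochberg adjusted p-values over 9754 genes. Changes are log2 differences ± SE of the fit to the 3 libraries. Every class also enters the mean that the others are compared with, so the 5 comparisons are not independent.

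**Figure D2:**
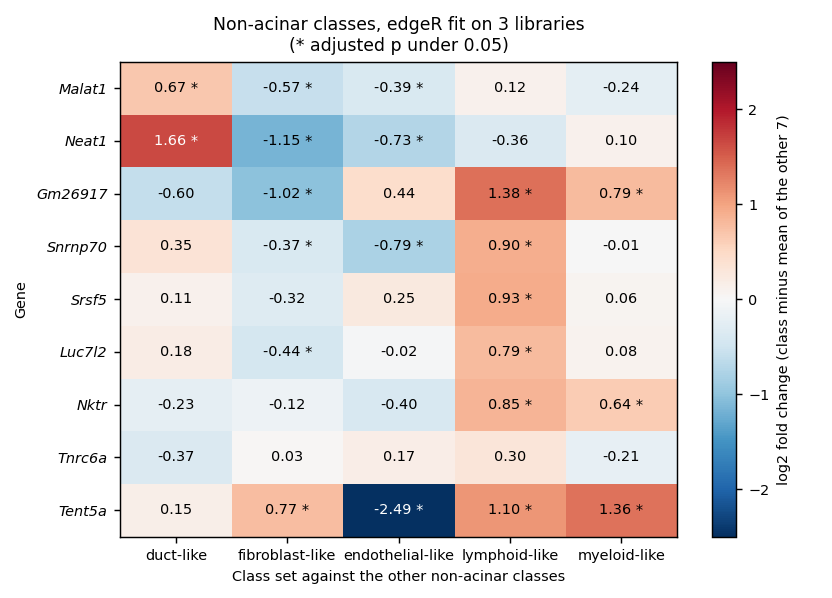
Heat map of the log2 difference of each RNA (rows) between 1 non-acinar class (columns) and the mean of the other 7, from edgeR, with an asterisk at an adjusted p under 0.05. *Neat1* is 3.15-fold higher in duct-like cells and *Tent5a* 5.6-fold lower in endothelial-like cells, and the splicing mRNAs are marked as higher in the lymphoid-like column.

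In duct-like cells, 2 of the 9 RNAs rose and none fell by edgeR, against 25.8% of all genes called, 18.9% higher and 6.91% lower. *Neat1* rose by 1.66 ± 0.17 (adjusted p = 8.14e-10), a 3.15-fold difference, and *Malat1* by 0.67 ± 0.12 (adjusted p = 1.67e-05). Of the others, *Gm26917* differed by −0.60 (adjusted p = 0.052), *Snrnp70* by 0.35 (adjusted p = 0.062) and *Tnrc6a* by −0.37. Without the female library, *Gm26917* (−1.01) and *Tnrc6a* (−1.12) were also called lower, and without male 1 *Snrnp70* (0.51) was called higher. Other long noncoding RNAs rose with *Neat1*, 7 of 12 in the list, among them the snoRNA hosts *Gas5* (1.09), *Snhg1* (0.71) and *Snhg12* (0.72). None of the 9 paraspeckle proteins was called in either direction by edgeR. Of the 20 dissociation genes, 16 were higher and 1 lower, led by the chaperone *Dnajb1* (2.74), and their part in the *Neat1* difference was not tested. Of the kin of *Tent5a*, *Tent5b* rose by 2.72 and *Tent5c* fell by 1.91.

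In fibroblast-like cells, 5 of the 9 fell and 1 rose, against 39.1% of all genes called, 11.3% lower and 27.8% higher. *Neat1* fell by 1.15 ± 0.22 (adjusted p = 3.7e-05), *Gm26917* by 1.02 ± 0.23 (adjusted p = 0.00035) and *Malat1* by 0.57 ± 0.13 (adjusted p = 0.00044). Both U1 members were called lower, *Luc7l2* by −0.44 ± 0.16 (adjusted p = 0.024) and *Snrnp70* by −0.37 ± 0.14 (adjusted p = 0.031), and both calls were lost without male 1 and without male 2, the second also without the female library. *Tent5a* rose by 0.77 ± 0.21 (adjusted p = 0.0032). *Srsf5* differed by −0.32 (adjusted p = 0.051) and was called lower without the female library (−0.43). The SR-related and speckle genes gave 8 lower and 3 higher of 31, with the helicase *Ddx5* (−0.69), *Rbm25* (−0.63) and the speckle scaffold *Srrm2* (−0.47) lower and *Rsrc1* (1.03) higher. Of 11 SR proteins 3 were lower and 1 higher, and of 8 U1 genes only *Luc7l3* was called, lower. All 3 of the 45S rows were lower as well, *AY036118* by −1.30. Not every long noncoding RNA was lower: of 12 others 4 rose and 1 fell. *Meg3*, an imprinted RNA, stood at 8.02 and *Tug1* at 0.78.

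In endothelial-like cells, 4 members fell and none rose by edgeR, against 33.6% of all genes called, 9.79% lower and 23.8% higher. *Tent5a* fell by 2.49 ± 0.35 (adjusted p = 3.17e-07), a level 5.6-fold lower that rests on the few UMIs given above. *Snrnp70* fell by 0.79 ± 0.16 (adjusted p = 0.00012), *Neat1* by 0.73 ± 0.21 (adjusted p = 0.0074) and *Malat1* by 0.39 ± 0.13 (adjusted p = 0.016), a call lost without male 1. *Nktr* differed by −0.40 (adjusted p = 0.063) and was called lower without male 2 (−0.64), and *Gm26917* (0.44) was called higher without the female library (0.73). Of 8 genes tested in the Sm core list 2 fell, *Snrpd2* (−0.75) and *Snrpd3* (−0.52). This list also holds *Snrpb2*, which encodes a U2 protein outside the Sm core. Of 11 SR proteins 4 rose and none fell by edgeR, and of the U1 genes *Prpf40b* rose by 2.81. The paraspeckle protein *Sfpq* rose (0.57) while *Neat1* fell, and all 3 of the 45S rows rose.

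In lymphoid-like cells, 6 of the 9 rose and none fell by edgeR, against 35.8% of all genes called, 21.4% higher and 14.3% lower. The 4 splicing mRNAs were all among them: *Srsf5* rose by 0.93 ± 0.14 (adjusted p = 7.19e-07), *Snrnp70* by 0.90 ± 0.15 (adjusted p = 5.6e-06), *Nktr* by 0.85 ± 0.16 (adjusted p = 4.4e-05) and *Luc7l2* by 0.79 ± 0.16 (adjusted p = 0.00012). *Gm26917* rose by 1.38 ± 0.20 (adjusted p = 8.46e-07) and *Tent5a* by 1.10 ± 0.25 (adjusted p = 0.0006). *Malat1* (0.12 ± 0.12), *Neat1* (−0.36) and *Tnrc6a* (0.30) were not called, and *Neat1* was called lower without the female library (−1.05). The SR-related and speckle genes gave 19 of 31 higher and none lower by edgeR, with a median of 0.59 against 0.005 over all genes, led by the SR kinase *Clk1* (1.60), *Pnn* (1.47) and *Rbm39* (1.06). Of 11 SR proteins 6 rose (*Tra2a* 1.07, *Tra2b* 0.96, *Srsf7* 0.91) and 1, *Srsf9*, fell (−0.77). The Sm core gave 5 of 8 higher (*Snrpg* 1.41), hnRNP genes 10 of 20, paraspeckle proteins 5 of 9 and the 45S rows 3 of 3, while the U1 list gave 1 higher and 1 lower of 8. These calls depend on the scaling: with library size alone the median of all genes moved to −0.52. Then 2 of the 31 SR-related genes and only *Gm26917* of the 6 members stayed called higher, although all 6 kept their sign relative to that median. *Malat1* (−0.52) and *Neat1* (−0.94) were then called lower. With free RNA subtracted, *Snrnp70*, *Srsf5*, *Luc7l2* and *Gm26917* were no longer called, while *Nktr* and *Tent5a* were, against 23.9% of all genes called. Of the 1581 lymphoid-like cells, 969 form a cluster whose 10 leading genes hold 3 mast cell markers (*Cpa3*, *Mcpt4*, *Cma1*) and 3 plasma cell RNAs (*Igkc*, *Igha*, *Jchain*) but only 1 lymphoid marker of the list, *Gata3*. In it 469 cells had at least 2 of the lymphoid markers, 19 at least 2 of the mast markers and 8 at least 2 of the plasma markers. Without this cluster, *Gm26917* (1.26), *Snrnp70* (0.76), *Luc7l2* (0.67), *Srsf5* (0.59) and *Nktr* (0.51, adjusted p = 0.044) were still called higher, *Tent5a* (0.54, adjusted p = 0.24) was not, *Neat1* was called lower (−0.99), and 12 of the 31 SR-related genes were higher. *Tent5a* was also not called when each library was clustered alone (0.57, adjusted p = 0.13).

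In myeloid-like cells, 3 members rose and none fell by edgeR, against 45.2% of all genes called, 28.5% higher and 16.8% lower. *Tent5a* rose by 1.36 ± 0.19 (adjusted p = 3.04e-07), *Gm26917* by 0.79 ± 0.18 (adjusted p = 0.00044) and *Nktr* by 0.64 ± 0.14 (adjusted p = 0.00018). *Malat1* differed by −0.24 (adjusted p = 0.11) and was called lower without the female library (−0.34). With library size alone, where the median of all genes moved to −0.37, *Gm26917* (0.38) and *Nktr* (0.25) were not called and *Malat1* (−0.62) and *Tnrc6a* (−0.66) were called lower. In the list of poly(A) polymerases and poly(A)-binding proteins, 4 of 8 were higher and 1 lower. The polymerases *Tent5c* (4.32) and *Tent2* (1.34) and the binding protein *Pabpc1* (0.87) were among the higher ones, and *Tent5b* (−2.66) was lower. The Sm core list gave 6 of 8 higher, among them the U2 gene *Snrpb2* (1.27) and *Snrpg* (0.84). Of hnRNP genes 12 of 20 were higher and 1 lower, and of SR proteins 5 of 11 were higher. Of SR-related genes 10 of 31 were higher (*Ccnl1* 1.49) and 2 lower (*Pnisr* −1.11).

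How the RNAs go with the depth of a cell was asked next. In acinar-like cells, with no test, *Malat1* fell from 43288 ± 13243 CPM outside tear genes (SD, n = 3) in cells of 1000 to 2000 UMIs to 8075 ± 4652 in cells of over 16000, and *Neat1* from 967 to 362. Split at the median UMIs of each library, the shallower set of the acinar-like cells held more of all 9 in 3 of 3 libraries, by a mean log2 difference of 2.52 for *Gm26917*, 1.66 for *Malat1*, 1.09 for *Snrnp70*, and 0.56 (*Tent5a*) to 0.88 (*Luc7l2*) for the rest. The value for *Gm26917* rests on the female library, where it was 4.41, against 1.81 and 1.34 in the male ones, while *Malat1* ranged only from 1.54 to 1.75. The sets also differed in mitochondrial share outside tear genes, 24.3% in shallow and 9.72% in deep cells, and in tear share, 81.4% and 91.2%, and the part of these was not tested. In *Tfrc*-high-like cells, which were split on their own, *Malat1* made up 11.6% of UMIs outside tear genes in the shallower set and 7.62% in the deeper set, while the mitochondrial share ran the other way, 5.59% and 22.7%.

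**Figure D3:**
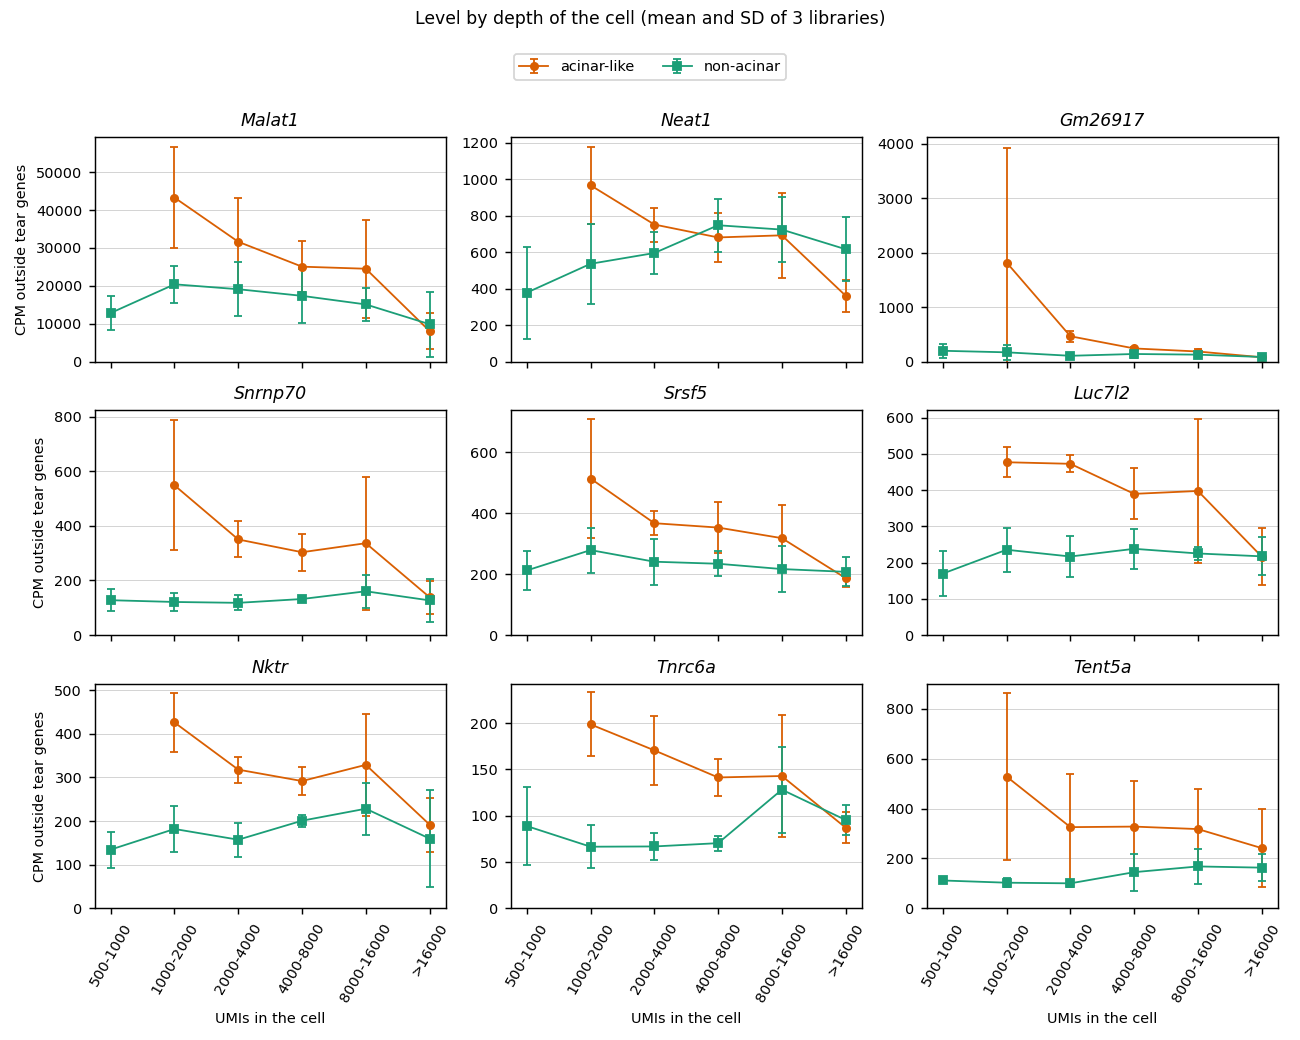
Level of each RNA in CPM outside tear genes (linear axis) over 6 bins of UMIs per cell, as mean ± SD of 3 libraries, in acinar-like and non-acinar cells. For acinar-like cells the bin of 500 to 1000 UMIs, with cells from only 2 libraries, is left out. Non-acinar classes are pooled in each bin without balancing them. In acinar-like cells *Malat1* goes from 43288 to 8075, from the bin of 1000 to 2000 UMIs to the last, and in non-acinar cells it stands at 12857 in the first bin, at 20418 in the next and lower again beyond.

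Outside acinar cells, cells were split at the median UMIs of their own class and library, so that both sets hold the same classes. *Malat1* stood at 28148, 18928 and 18343 CPM outside tear genes in the shallow sets and at 24926, 16309 and 13511 in the deep ones, higher in the shallow set in each library. *Gm26917* stood at 128, 130 and 111 against 81.0, 95.5 and 109.9. By edgeR, with tear genes kept in the counts, 0 of the 9 RNAs were called, against 0.59% of 11347 genes, and 0 by DESeq2. With tear genes left out, 2 of the 9 were called higher in shallow cells, against 0.974% of 10780 genes called, 0.38% higher. With tear genes kept, an unadjusted edgeR p under 0.05 was found for 2 of the 9 RNAs and for 1130 of the 11347 genes. The 2 were *Gm26917* (0.46 ± 0.11, adjusted p = 0.074) and *Malat1* (0.28 ± 0.083, adjusted p = 0.18). The other members differed by 0.03 (*Neat1*) to 0.17 (*Snrnp70*). Without male 2, *Gm26917* was called higher in shallow cells (0.59, adjusted p = 0.0085). The 45S rows were higher in shallow cells, 3 of 3 (*AY036118* 0.75, *Gm42418* 0.64, *Lars2* 0.49), as were 2 of 20 dissociation genes, *Hspa1b* (0.43) and *Hspa1a* (0.39), and no gene of the other 9 lists was called. The shallow sets held 45.7% tear RNA and 5.60% mitochondrial RNA outside tear genes, the deep sets 52.8% and 5.08%. Class by class, *Malat1* was higher in the shallow set in 3 of 3 libraries in *Ltf*+-, MEC-, mural-, lymphoid- and myeloid-like cells, by mean log2 differences of 0.27 (MEC-like) to 0.62 (*Ltf*+-like), against −0.03 in fibroblast-like cells, and *Neat1* was lower in the shallow set in 3 of 3 libraries in endothelial-like (−0.34) and fibroblast-like cells (−0.33). Over bins of depth, non-acinar *Malat1* stood at 12857 ± 4591 CPM outside tear genes at 500 to 1000 UMIs (1054 cells), at 20418 ± 4822 at 1000 to 2000 UMIs and at 9885 ± 8543 above 16000, where only 82 cells were left and 85.5% of their RNA was of tear genes. *Neat1* was higher in each bin over the lower range, from 379 at 500 to 1000 UMIs to 748 at 4000 to 8000. Unlike the sets split within class, where *Neat1* differed by 0.03, these bins pool the classes without balancing them. The part of the mix of classes in the bins was not tested. The difference between acinar-like and non-acinar cells was not tested.

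**Figure D4:**
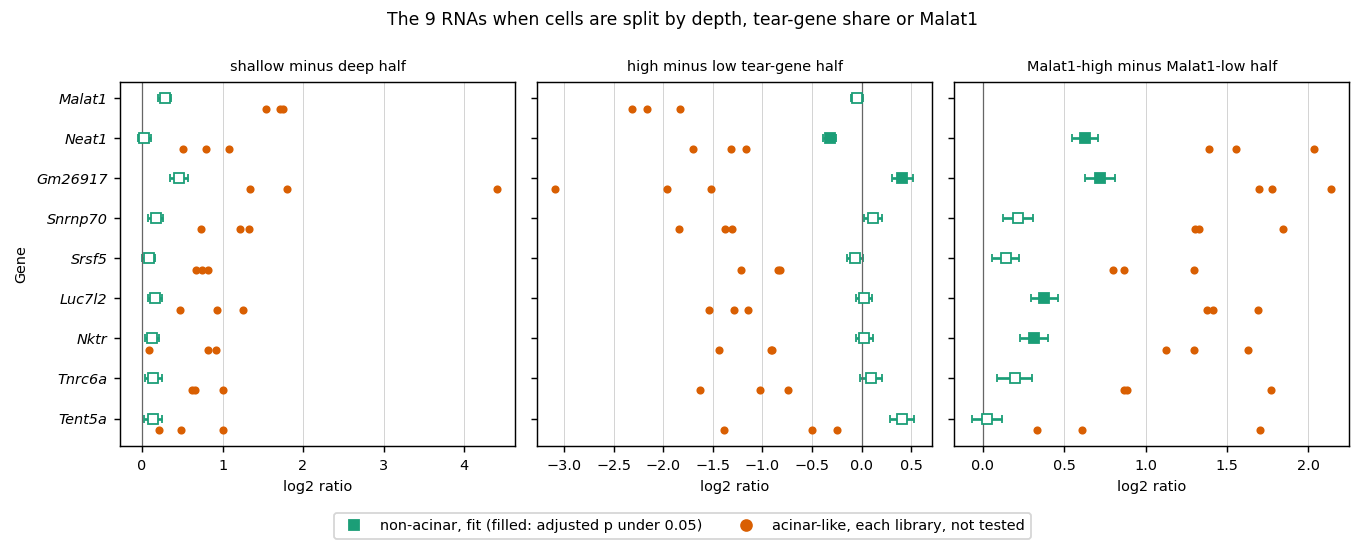
Log2 difference of each RNA between sets of cells split by depth, by tear share and by *Malat1* share. Squares with SE bars are the edgeR estimates in non-acinar cells, filled where the adjusted p is under 0.05, and dots are the 3 libraries in acinar-like cells, which were not tested. Acinar-like cells move further than non-acinar cells in most panels, and *Tent5a* goes opposite ways in the tear panel.

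The share of tear RNA in a cell was examined in the same way, with tear genes left out of the counts. In acinar-like cells, with no test, all 9 RNAs were lower in the set with more tear RNA in 3 of 3 libraries, by mean log2 differences from −0.71 (*Tent5a*) to −2.19 (*Gm26917*, with −3.09, −1.96 and −1.52 in the 3 libraries), with *Malat1* at −2.11, *Snrnp70* at −1.51 and *Neat1* at −1.39. Those sets had medians of 32447 and 4043 UMIs and mitochondrial shares outside tear genes of 7.73% and 24.5%. Outside acinar cells, where the sets held 63.2% and 34.5% tear RNA, 2 of the 9 were called by edgeR, 1 in each direction, against 6.71% of 10454 genes called, 4.5% higher and 2.21% lower. *Neat1* stood at 439, 531 and 594 CPM outside tear genes in the tear-rich sets and at 548, 721 and 767 in the tear-poor ones, lower in each library, and fell by 0.32 ± 0.065 (adjusted p = 0.0059). *Gm26917* stood at 119, 129 and 107 against 83.2, 94.1 and 113, higher in the female library and male 1 only, and its rise of 0.41 ± 0.11 (adjusted p = 0.029) was lost without the female library (0.27) and without male 1 (0.36). *Tent5a* stood at 114, 123 and 151 against 109, 71.9 and 98.6 (0.41 ± 0.12, adjusted p = 0.055) and was called higher without the female library (0.75). *Malat1* differed by only −0.05, and was called lower without the female library (−0.14, adjusted p = 0.0033). All 3 of the 45S rows rose with tear share (*AY036118* 0.63, *Lars2* 0.54, *Gm42418* 0.51), 5 of 20 dissociation genes fell (*Atf3* −0.32, *Fos* −0.31, *Egr1* −0.31), 1 SR-related gene, *Ccnl1*, fell (−0.33), and no gene of the other 8 lists was called by edgeR. The free RNA of each library is itself rich in tear products and in *Gm26917*. With it subtracted in proportion to the tear UMIs of each set, neither RNA was called (*Neat1* −0.98, adjusted p = 0.90), and 0 of 10397 genes were called at all. Tear UMIs also made the split, so relatively more was taken from the tear-rich sets by construction. The part of free RNA in these differences was not tested.

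Which RNAs go with *Malat1* from cell to cell was asked by splitting non-acinar cells at the median *Malat1* share of their own class and library, with *Malat1* left out of the counts. Of the 8 other RNAs, 4 rose in *Malat1*-high cells and none fell by edgeR, against 11.7% of 10866 genes called, 4.79% higher and 6.87% lower. *Neat1* and *Gm26917* led. *Neat1* stood at 606, 852 and 927 CPM outside tear genes in *Malat1*-high sets and at 432, 474 and 501 in *Malat1*-low ones, so that every high set was above every low one (0.63 ± 0.079, adjusted p = 1.48e-12). *Gm26917* stood at 131, 131 and 150 against 70.2, 89.7 and 78.2, also without overlap (0.72 ± 0.094, adjusted p = 9.25e-12).

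Of the splicing mRNAs, *Luc7l2* stood at 310, 222 and 262 CPM outside tear genes against 233, 161 and 172 (0.38 ± 0.084, adjusted p = 0.00035). *Nktr* stood at 228, 169 and 197 against 177, 124 and 141 (0.32 ± 0.086, adjusted p = 0.0049), a call lost without male 1 (0.30, adjusted p = 0.11). Both were higher in the *Malat1*-high set of each library, though the values overlap between libraries. *Snrnp70* (0.22, adjusted p = 0.10), *Tnrc6a* (0.20, adjusted p = 0.26), *Srsf5* (0.14, adjusted p = 0.31) and *Tent5a* (0.03, adjusted p = 0.91) were not called. Split by the 5 large classes and 3 libraries, *Neat1* and *Luc7l2* were higher in the *Malat1*-high set in 15 of 15 pairs, *Gm26917* in 14, *Snrnp70* and *Tnrc6a* in 13, *Srsf5* and *Nktr* in 12 and *Tent5a* in 11. Some pairs rest on few UMIs, down to 1 for *Tnrc6a*, 3 for *Tent5a*, 4 for *Gm26917*, 5 for *Snrnp70*, 6 for *Nktr* and 10 for *Neat1*. In acinar-like cells, with no test, all 8 were higher in the *Malat1*-high set, from 0.88 (*Tent5a*) to 1.87 (*Gm26917*).

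The sets differed in more than *Malat1*: tear RNA made up 45.3% of UMIs in *Malat1*-high and 54.6% in *Malat1*-low cells, and outside tear genes ribosomal protein genes made up 18.2% and 21.2%, mitochondrial genes 5.51% and 5.04% and dissociation genes 2.45% and 2.16%, at median UMIs of 2016 and 2101. The part of these in the differences was not tested.

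**Figure D5:**
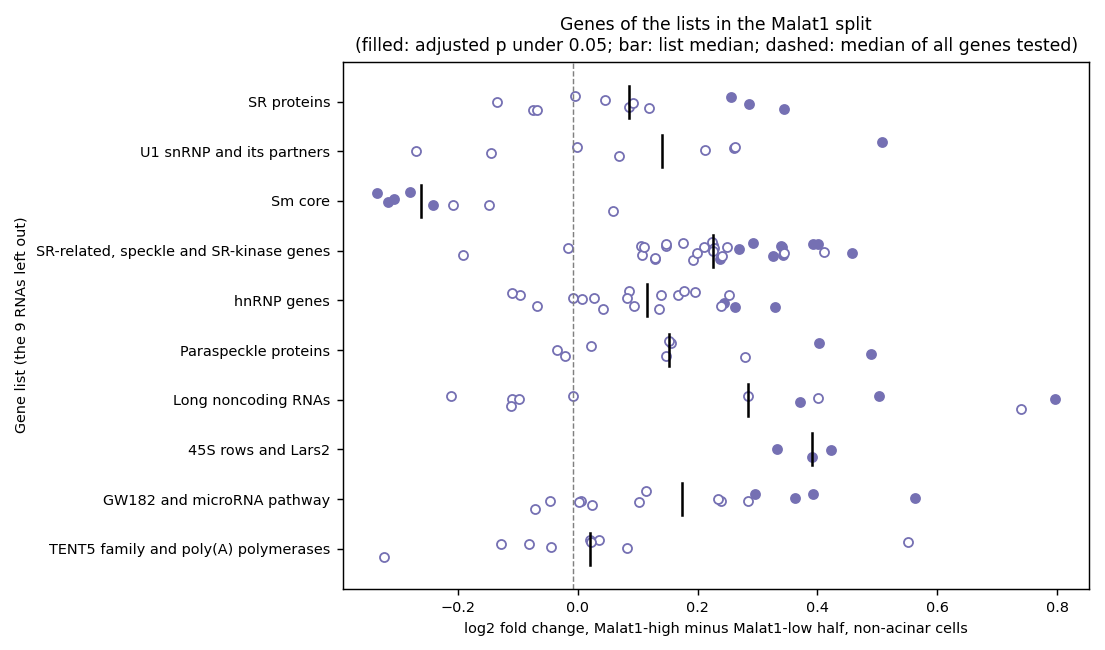
Log2 difference between *Malat1*-high and *Malat1*-low non-acinar cells for the genes of the lists, members left out, with 1 point per gene (filled, adjusted p under 0.05), a bar at each list's median and a dashed line at the median of all genes. SR-related and speckle genes have a median of 0.23 and genes of the Sm core list one of −0.26.

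The gene lists did not move together in this split. Of the SR-related and speckle genes, 10 of 31 rose and none fell by edgeR, with a median of 0.23 against −0.008 over all genes, among them *Pnisr* (0.46), *Clk1* (0.39) and *Srrm2* (0.34). Of SR proteins 3 of 11 rose (*Tra2a* 0.34, *Tra2b* 0.29, *Srsf11* 0.26), and of U1 genes 1 of 8, *Prpf39* (0.51). The Sm core list, mostly genes of the ring of proteins that most spliceosomal snRNAs carry, went the other way. Of its 8 genes tested 5 were lower and none higher by edgeR, with a median of −0.26. *Snrpe* (−0.34), *Snrpg* (−0.32) and *Snrpf* (−0.31) led. With library size alone none of the Sm genes was called lower by edgeR, while their median relative to that of all genes was −0.22. Paraspeckle proteins gave 2 of 9 higher, among them *Sfpq* (0.40), hnRNP genes 3 of 20 (*Hnrnph1* 0.33), and long noncoding RNAs 3 of 11 (*Kcnq1ot1* 0.80, *Meg3* 0.50, *Dleu2* 0.37). Of the microRNA pathway 4 of 14 rose, among them *Ago3* (0.56) and the GW182 paralogues *Tnrc6b* (0.36) and *Tnrc6c* (0.30). None of 9 genes of poly(A) polymerases and poly(A)-binding proteins was called by edgeR. The 45S rows gave 3 of 3 higher, and the dissociation genes 5 higher (*Fosb* 0.48, *Egr1* 0.36, *Jun* 0.34) and 1 lower (*Nfkbia* −0.22) of 20.

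Likeness of pattern was measured as Pearson's r of log2(CPM outside tear genes + 1) over 27 points, 9 classes in 3 libraries, among 3050 genes with a mean of at least 50 CPM. All acinar-like cells, *Tfrc*-high-like ones included, were summed as 1 of the 9 classes. The cells on which the members were chosen are thus among the points, which can raise r between members. The points also share their libraries, so r is a description. Nearest to *Malat1* were *Son* (0.84), which encodes a speckle scaffold, *Ktn1* (0.80) and *Calm2* (0.79), and nearest to *Neat1* were *Phlda1* (0.83), *Perp* (0.79) and *Mif* (0.78). *Gm26917* was nearest to *Tspan13* (0.72), *Eif5* (0.70) and *Akr1b3* (0.69), and had r = −0.05 with its neighbour *Gm42418*, which had 0.86 with *AY036118*. *Snrnp70* was nearest to *Chd3* (0.76), *Srsf5* to *Dusp11* (0.81), *Luc7l2* to *Ogt* (0.76) and *Srrm1* (0.74), *Nktr* to *Gm12886* (0.74), *Tnrc6a* to *Kif1b* (0.77), and *Tent5a* to *Pgls* (0.76) and *Vmp1*. Between members, r was 0.73 for *Srsf5* with *Luc7l2*, and 0.61 for *Snrnp70* with *Luc7l2*, for *Snrnp70* with *Nktr* and for *Gm26917* with *Nktr*. *Malat1* and *Neat1* had r = 0.31, and 0.58 once library means were removed.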

How the data were processed

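The authors made the 3 count matrices with Cell Ranger 6.1.2 on the mm10 genome. Per the file headers, the deposited values are whole-number counts of UMIs per gene and barcode, not normalized. The annotation release is not given in the sources used here, and positions are from GENCODE vM21. Barcodes with over 500 UMIs, over 200 genes and under 15% mitochondrial UMIs were kept. Doublets were left out by scanpy 1.11.5 (scrublet) at 0.8% per 1000 barcodes. Cells were clustered with Seurat 5.3.0 and sctransform 0.4.2, with 404 genes (members, lists, tear-product, mitochondrial and ribosomal genes) left out of the features, and named by marker lists with a score set after clusters were seen, as were 4 of the tear-product genes. Members and the 11 gene lists (160 genes) were chosen with earlier results of these data known. All 9 members are named in every comparison, and of each list up to 3 called genes per direction with the smallest p, other than 1 gene that is not reported here.

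UMIs were summed per library and class or set and tested with edgeR 4.0.16 (R 4.3.3, TMM, filterByExpr, quasi-likelihood, Benjamini-Hochberg, call under 0.05). The arms of a comparison come from the same 3 suspensions, so the library is a block, and this pairing comes from the design. On simulated counts with a log2 change of 1, 100% of changed genes were recovered for the duct-like comparison (8539 genes), 89% for depth, 86% for tear share and 90% for *Malat1*, and with a change of 0.5, 86%, 26%, 27% and 22%. DESeq2 1.42.0 was an alternative. Free RNA and depth (37641576 to 55390678 UMIs per library) limit precision, and intervals cover these libraries only.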

Additional observations from a re-analysis of the deposited data

Results flagged for a closer look

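*Tent5a* went opposite ways with tear share in acinar-like and other cells. As means of the log2 differences within 3 libraries, it was −0.71 in acinar-like and 0.48 in non-acinar cells between sets with more and with less tear RNA. Every library of the one set moved opposite to every library of the other. In non-acinar cells, though, the female library hardly moved, as its levels given with the tear split show, and the male ones moved further. By edgeR the non-acinar rise was not called (0.41 ± 0.12, adjusted p = 0.055). The difference between acinar-like and non-acinar cells was not tested, and the choice of members was made on acinar cells.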

How the results depend on the processing

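Of 27 calls of single members, 3 held under every alternative tried (*Neat1* in duct-like, *Tent5a* in endothelial-like and in myeloid-like cells). Calls were lost with free RNA subtracted (19), library size alone (12), no replicate block (12), without male 1 (5), DESeq2 (3), and 2 or fewer under each other setting, and all 27 kept their sign relative to the median of all genes under library size alone. The cause was not tested. The median of all genes moved under library size alone by 0.30 (duct-like), 0.31 (fibroblast-like), 0.18 (endothelial-like), −0.52 (lymphoid-like), −0.37 (myeloid-like), 0.18 (depth) and 0.33 (*Malat1*), and the percentages called higher and lower became 21.7 and 3.47 (duct-like), 30.2 and 5.3 (fibroblast-like), 22.3 and 6.08 (endothelial-like), 10 and 24.8 (lymphoid-like), 16.8 and 24.1 (myeloid-like), 0.3 and 0.123 (depth), 3.31 and 2.91 (tear share) and 17.2 and 0.129 (*Malat1*). Under it *Malat1* in lymphoid-like cells went to −0.52 with the median of all genes, at −0.0003 relative to it, and with free RNA subtracted *Gm26917* between tear sets reversed to −3.15.

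Members called, with the count as reported first, were as follows. With library size alone they went from 6 to 3 in fibroblast-like cells, from 2 to 1 for tear share and from 4 to 7 for *Malat1*. In lymphoid-like cells they went from 6 to 3, of which 1 was higher, while *Malat1* and *Neat1* were newly called lower. With free RNA subtracted the counts went from 6 to 1 (fibroblast-like), 6 to 2 (lymphoid-like), 2 to 0 (tear share) and 4 to 0 (*Malat1*). In the *Malat1* split the estimates of *Neat1* (0.98) and *Luc7l2* (0.91) were then larger than those reported. In endothelial-like cells the counts went from 4 to 2, 1 higher and 1 lower, where all 4 reported were lower. Without the replicate block, that is, without the pairing of arms by library, they went from 2 to 1 (duct-like), 6 to 3 (fibroblast-like), 4 to 2 (endothelial-like), 2 to 0 (tear share) and 4 to 0 (*Malat1*), and no gene at all was called by edgeR for the 3 splits. For depth, 0 members became 2 with tear genes left out or no filter and 1 with the split made within bands of tear share or without the lymphoid-like cluster led by mast and plasma genes, an alternative chosen after seeing the data that lost 1 of the 27 calls (*Tent5a*, lymphoid-like). For tear share, 2 became 1 with DESeq2 and with bands of depth. Leaving out 1 library gave 2 to 4 (duct-like), 4 to 6 (fibroblast-like), 3 to 5 (endothelial-like), 6 to 7 (lymphoid-like), 3 to 4 (myeloid-like), 0 to 1 (depth), 1 to 3 (tear share) and 3 to 4 (*Malat1*).

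Counts over all genes moved by over 1.5 times as follows, with fewer genes tested (8806 with free RNA subtracted and 6668 without the female library, of 9754). In the class comparisons these settings gave 1355 and 1202 genes against 2513 (duct-like, 15.4% and 18% against 25.8% of those tested), 2198 and 2320 against 3817 (fibroblast-like, 25% and 34.8% against 39.1%), 1988 and 1867 against 3278 (endothelial-like, 22.6% and 28% against 33.6%), 2108 and 1624 against 3490 (lymphoid-like, 23.9% and 24.4% against 35.8%), and 2736 and 2614 against 4411 (myeloid-like, 31.1% and 39.2% against 45.2%). For depth, 67 became 25 (DESeq2), 37 (each library clustered alone), 1 (free RNA), 244 (no filter), 214 (bands), 105 (tear genes left out), 115 (without the female library) and 133 (without male 1). For tear share, 701 became 421 (2 times the doublets left out), 286 (DESeq2) and 0 (free RNA). For *Malat1*, 1268 became 287 (DESeq2), 776 (each library alone), 769 (bands), 0 (free RNA), 659 (without the female library) and 534 (without male 1). Few UMIs limit *Tnrc6a*, *Tent5a* and *Gm26917* in the male libraries.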

Other observations

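A small cluster of acinar-like cells led by *Gm26917* (92, 14 and 30 cells) held 1983 CPM outside tear genes of it in the female library against 145 in the other acinar-like cells, and 394 against 145 and 166 against 133 in the male ones. In the female library these cells also held 25558 CPM outside tear genes of *Gm42418* against 5732.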
